A study of Rattus norvegicus with 12 samples.

Results

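B cells are lymphocytes that bind antigen through a membrane immunoglobulin, which signals through its partner chains Cd79a and Cd79b, and that mature into plasma cells. Kinases such as Blk pass the signal on, Cd22 dampens it, and Cr2, the complement receptor CD21, lowers its threshold when complement is bound to the antigen. In the lung, B cells circulate through the vessels and gather in lymphoid tissue along the bronchi.

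The B cell genes described here are 9: Cd79a, Cd79b, Cd22, Cr2, Ms4a1, Blk, Bank1, Pax5 and Fcrl2. They were taken by symbol from a table of 19230 rows. Each has a row of its own that is not merged with another gene, and all 9 passed the filter on low values. The rule that picks the rows uses names and no measured value, but the genes were chosen with earlier results of these data known. Fcrl2 carries the synonyms Fcrls and Msr2 in RefSeq, and Cr2 is also known from follicular dendritic cells, so neither name belongs to B cells alone.

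RNA was sequenced in 12 libraries from Sprague-Dawley rats, in 4 groups of 3. Of the 3 groups of total lung, the first was wild-type (WT) and kept in normoxia, with day 0 on its label. The others had received Sugen and hypoxia (SuHx) and are labelled day 4: WT in one group, Ahr-KO in the other. Sugen, or SU5416, blocks VEGF receptors, and its pairing with hypoxia serves as a rat model of pulmonary arterial hypertension. The other libraries came from endothelial cells (ECs) of WT rats in normoxia, with lung as their source. Their isolation is not described in the sources used here. Their day is labelled 4, while the column names of the table give 0. Ahr is the gene of the aryl hydrocarbon receptor, and the sources used here do not say which part of it was deleted. There was no Ahr-KO lung in normoxia, and neither SU5416 nor hypoxia was given alone, so their parts in a difference cannot be told apart. Libraries are named below by group and by the suffix 0, 1 or 2 of their column.

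Values are a signal, an estimated read count divided by 1 factor per library. Table totals were 20.6 M to 27.1 M, and 1 read was worth 0.745 to 1.25. Signal is not scaled for gene length, so levels are compared between libraries and never between genes. Ahr spanned 1800.0 to 2523 in the lungs labelled Ahr-KO and 1739.6 to 3073 in WT SuHx, so this mRNA does not check the label. Its target Cyp1a1 spanned 3.87 to 5.32 against 65459 to 75070.5. Cardiac muscle markers summed to 11855 in normoxia library 2 and 25660.1 in Ahr-KO library 2, against 840 to 7133 in the other lung libraries. Medians and calls of the B cell genes against normoxia are also given without these 2 libraries. All 12 endothelial markers were higher in ECs than in lung, but transcripts of leukocytes were present too, as shown with the EC comparison.

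The RefSeq promoter table, of the GRCr8 build and not the rn6 build that the labels name, held 4 of the 9 genes. Those of Cd79a and Bank1 are printed because their transcripts parted in the lung: Cd79a was not called in any lung comparison and Bank1 fell under SuHx. Each line gives the 250 bases before the gene start, 5′ to 3′ on the strand of the gene, at chr1:89621210-89621459 (+ strand) for Cd79a and chr2:227473716-227473965 (- strand) for Bank1. Capitals mark matches on either strand to 3 motifs of factors known from B cells: the octamer ATTTGCAT, the EBF1 core CCCNNGGG and the PU.1/ETS core GAGGAA.
Cd79a: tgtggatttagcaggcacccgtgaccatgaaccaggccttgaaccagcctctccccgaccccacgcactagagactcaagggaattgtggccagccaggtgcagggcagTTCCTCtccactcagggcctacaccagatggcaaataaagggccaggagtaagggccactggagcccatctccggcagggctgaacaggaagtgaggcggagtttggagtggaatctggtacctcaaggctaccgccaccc
Bank1: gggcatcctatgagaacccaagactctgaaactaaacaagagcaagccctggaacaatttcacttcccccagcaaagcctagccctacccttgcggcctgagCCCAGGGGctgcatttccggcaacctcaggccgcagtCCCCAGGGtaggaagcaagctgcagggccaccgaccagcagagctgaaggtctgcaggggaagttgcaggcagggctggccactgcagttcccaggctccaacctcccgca
Cd79a held the PU.1/ETS core 141 bases before the start, on the opposite strand, and Bank1 held the EBF1 core 148 and 111 bases before it. The Cd22 window held the PU.1/ETS core 64 bases before the start, and that of Cr2 matched none of the 3 motifs. No match overlapped another. Over all 33469 promoters of this length, 1.56% held the octamer, 10.8% the EBF1 core and 23.3% the PU.1/ETS core, so these matches are common and are given as a description.

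The first comparison was of WT lungs with and without SuHx. Bank1, an adaptor of B cell receptor signalling, fell, and the other 8 were not called. Its signal was 781, 504 and 660 in normoxia libraries 0, 1 and 2 (648 ± 139, SD, n = 3), and 93.6, 58.1 and 101 in the WT SuHx lungs (84.3 ± 23.0). Every normoxia library lay above every SuHx library. The fall was 7.70-fold (log2 fold change -2.94 ± 0.27, SE; adjusted p = 0.000389, limma over all 15234 tested genes with Benjamini-Hochberg adjustment). Each fold change compares geometric means of signal + 1, and a gene was called at an adjusted p under 0.05. The 1 called gene of 9 compares with 13.5% of all tested genes called in either direction and 6.39% called lower, so the count itself does not set the group apart. Libraries of the groups did not overlap for 1 of the 9 genes, against 36.7% of all tested genes.

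**Figure D1:**
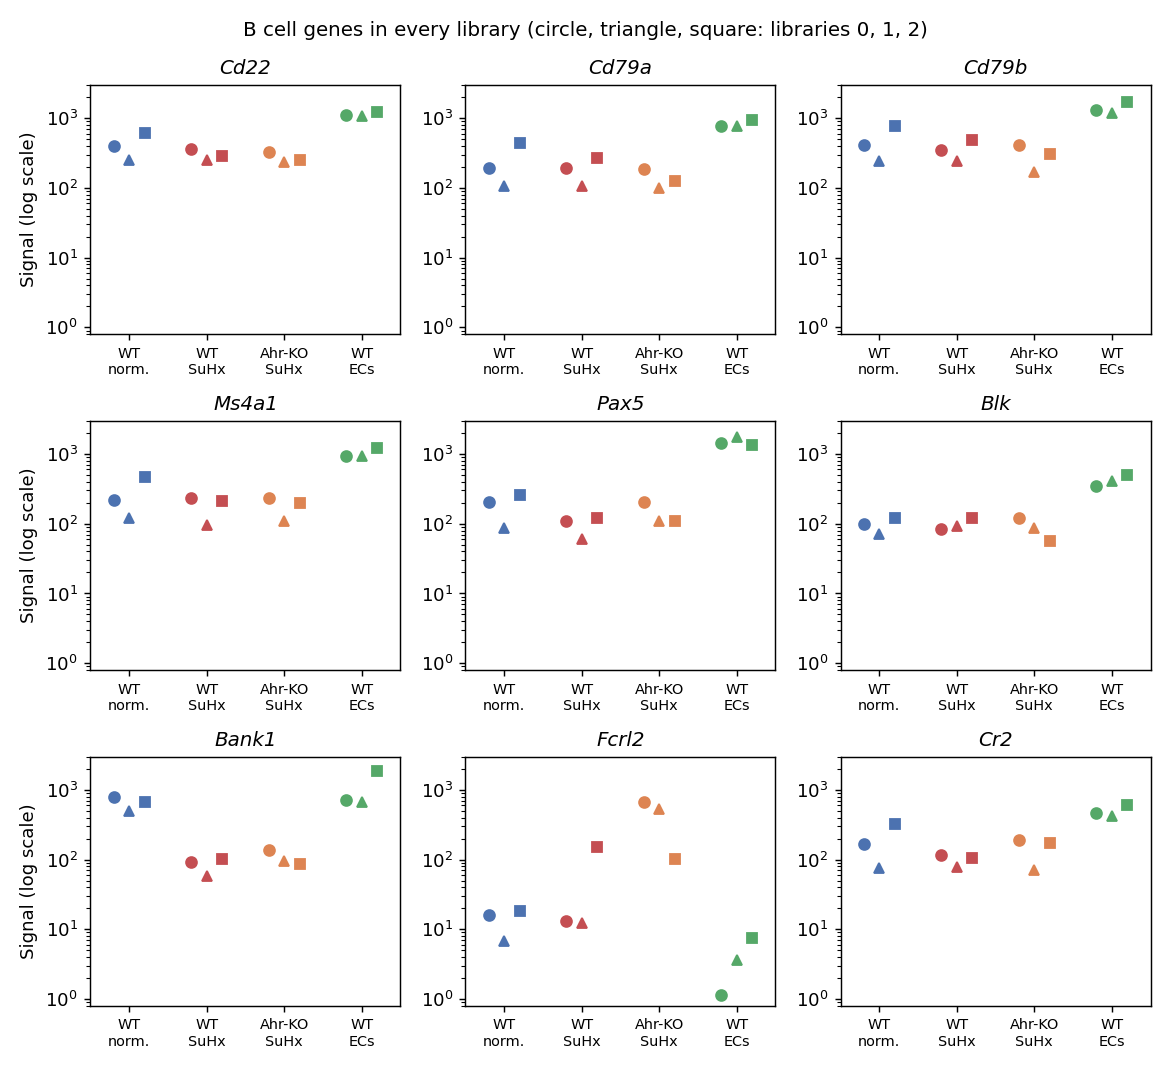
Signal of each B cell gene in every library (log axis; circle, triangle and square are libraries 0, 1 and 2 of a group; WT norm. is WT normoxia lung). Bank1 is at 504 to 781 in normoxia lung and at 58.1 to 135 in the 6 SuHx lungs; Fcrl2 is highest in the lungs labelled Ahr-KO, and the other 7 genes are highest in ECs.

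The receptor chains and surface proteins varied more between the normoxia lungs than between the groups. Cd79a was at 191, 106 and 447 in normoxia and at 190.1, 106 and 264 in WT SuHx, so the groups overlapped throughout (log2 fold change -0.25 ± 0.51, adjusted p = 0.76). Its partner Cd79b was at 418, 243 and 767 in normoxia and at 354, 244 and 491 in WT SuHx (-0.29 ± 0.45, adjusted p = 0.685, limma). Ms4a1, which encodes CD20, was at 216, 122 and 470.1 against 235, 94.8 and 215 (-0.46 ± 0.51, adjusted p = 0.571, limma). In all 3 genes library 2 was the highest normoxia library and library 1 the lowest, and the WT SuHx values lay within that range or under it.

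Cd22, a sialic acid-binding inhibitor of the receptor, was at 395, 252 and 617 in normoxia and at 358, 255 and 287 in WT SuHx (-0.41 ± 0.29, adjusted p = 0.359, limma). Cr2 was at 168, 76.7 and 324 in normoxia and at 114, 79.5 and 106 in WT SuHx (-0.70 ± 0.51, adjusted p = 0.375, limma). Both groups overlapped for both genes. Pax5, the transcription factor that holds B cell identity, had the lowest fitted value of the 8 uncalled genes, with 208, 87.8 and 260.0 in normoxia against 108, 60.4 and 123 in WT SuHx (-0.85 ± 0.44, adjusted p = 0.212, limma). Blk, a Src-family kinase, was at 97.9, 70.7 and 120 against 84.2, 94.1 and 120 (0.06 ± 0.31, adjusted p = 0.902, limma).

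These 8 tests leave wide intervals. The 95% interval of the log2 fold change ran from -1.40 to 0.89 for Cd79a, from -1.61 to 0.70 for Ms4a1, from -1.83 to 0.13 for Pax5 and from -0.62 to 0.75 for Blk. A log2 fold change of -1 lies inside the intervals of Cd79a, Ms4a1 and Pax5. Over the 9 genes the median log2 fold change was -0.41, with 7 below 0, beside a median of -0.04 over all tested genes. The fold changes behind this median moved with single normoxia libraries. Without normoxia library 2 and Ahr-KO library 2 the median was 0.05, with 4 genes below 0, beside -0.04 over all. The log2 fold change was then 0.29 for Cd79a, 0.13 for Cd79b, 0.05 for Ms4a1, -0.09 for Cd22 and -0.20 for Cr2, none of them called. Pax5 (-0.54) and Blk (0.24) were not called either. Without normoxia library 1, the lowest of its group for all 9 genes, the log2 fold changes moved down instead. They were -0.74 for Cd79a, -0.92 for Ms4a1, -1.23 for Cr2 and -1.31 for Pax5, none of them called. In bulk lung, fewer cells of a type and less RNA per cell cannot be told apart.

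**Figure D2:**
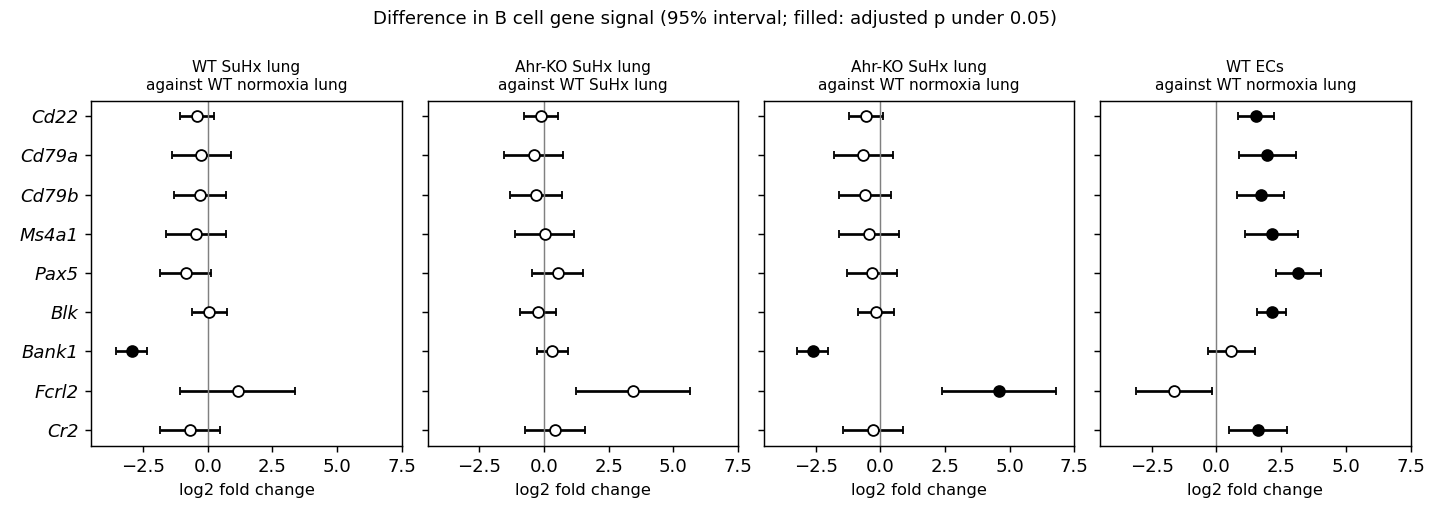
Log2 fold change of each B cell gene in the 4 comparisons, with its 95% interval (first-named group minus the other; filled points have an adjusted p under 0.05). Bank1 is below 0 in both comparisons of SuHx with normoxia lung, and 8 genes are above 0 in ECs, 7 of them called.

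Set against other B cell genes in the same library, Bank1 was lower under SuHx as well. Its signal divided by that of Cd79a was 1.48 to 4.77 in normoxia lung, 0.383 to 0.551 in WT SuHx and 0.675 to 0.964 in the lungs labelled Ahr-KO. Against Ms4a1 the quotient was 1.40 to 4.13 in normoxia, 0.399 to 0.613 in WT SuHx and 0.429 to 0.871 in the lungs labelled Ahr-KO. The SuHx libraries lay below all normoxia libraries in both quotients. Pax5 divided by Cd79a was also lower in every WT SuHx library (0.465 to 0.572) than in normoxia (0.581 to 1.09), by a narrow margin, while the lungs labelled Ahr-KO (0.880 to 1.10) overlapped with normoxia. Ms4a1 divided by Cd79a was 1.05 to 1.15 in normoxia, 0.814 to 1.23 in WT SuHx and 1.11 to 1.57 in the lungs labelled Ahr-KO, with overlap throughout. These quotients were chosen after the values were seen and are a description.

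The lungs labelled Ahr-KO under SuHx were set against the same normoxia lungs, which both comparisons share. Of the 9 genes, 1 was higher and 1 lower, beside 5.95% of all tested genes called higher, 3.8% called lower and 9.75% called in either direction. Bank1 was at 135, 95.6 and 85.1 in these lungs (105 ± 26.6), 6.12-fold below normoxia (log2 fold change -2.61 ± 0.27, adjusted p = 0.000419, limma). All its values lay below all normoxia values.

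Fcrl2, a member of the Fc receptor-like family, gave the opposite picture. It was at 15.9, 6.82 and 18.4 in normoxia (13.7 ± 6.10) and at 661, 530 and 101 in the lungs labelled Ahr-KO (431 ± 293). Those groups did not overlap, and the difference was 24.1-fold (log2 fold change 4.59 ± 0.99, adjusted p = 0.0197, limma). The call was lost without normoxia library 0 (adjusted p = 0.0556) or 1 (0.0667), or without Ahr-KO library 0 (0.0658) or 1 (0.077, all limma), and the log2 fold change stayed between 4.09 and 5.69 over all alternatives. In WT SuHx lung Fcrl2 was at 13.2, 12.2 and 150.4, so library 2 alone stood above normoxia (log2 fold change 1.16 ± 0.99, adjusted p = 0.444, limma). Without that library the log2 fold change was 0.004 (adjusted p = 0.998, limma).

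The remaining 7 genes were not called between the lungs labelled Ahr-KO and normoxia, with log2 fold changes from -0.65 to -0.17 and adjusted p from 0.276 to 0.788 (limma). Cd79a was at 186, 99.2 and 126, Cd79b at 418, 171 and 311, and Ms4a1 at 231, 110 and 198. Cd22 was at 328, 239 and 254, Cr2 at 193, 71.7 and 174, Pax5 at 202, 109 and 111, and Blk at 119, 86.8 and 56.2. Library 0 was the highest of the 3 for all 9 genes. Libraries of the groups did not overlap for 2 of 9 genes, beside 33% of all tested genes, and the median log2 fold change was -0.43, with 8 genes below 0, beside -0.03 over all. Without normoxia library 2 and Ahr-KO library 2 the median was -0.03, the same as over all genes, with 5 below 0. Pax5 (0.13), Blk (0.29) and Cr2 (0.05) then lay above 0, and none of these 3 was called. Without normoxia library 1 instead, the log2 fold change was -1.14 for Cd79a, -0.89 for Ms4a1 and -0.80 for Cr2, none of them called.

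Between lungs labelled Ahr-KO and WT lungs under the same SuHx, none of the 9 B cell genes was called, where 0.499% of all tested genes were. At an unadjusted p under 0.05, limma passed 1 of the 9, which was Fcrl2. Its log2 fold change was 3.43 ± 0.99 (adjusted p = 0.19, limma). Its groups overlapped, since WT SuHx library 2 (150.4) lay above Ahr-KO library 2 (101). Without that WT library the log2 fold change was 4.59 (adjusted p = 0.0809), and without that Ahr-KO library it was 4.28 (adjusted p = 0.14, both limma). Bank1 did not separate the SuHx groups either (0.33 ± 0.27, 95% interval -0.28 to 0.93, adjusted p = 0.602, limma).

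For the receptor chains the intervals of this genotype comparison were -1.54 to 0.75 (Cd79a) and -1.32 to 0.70 (Cd79b), and for Ms4a1 -1.13 to 1.18. For Cd22 the interval was -0.79 to 0.53. Pax5 (0.53 ± 0.44) and Cr2 (0.43 ± 0.51) had the largest positive values after Fcrl2, with adjusted p of 0.603 and 0.727 (limma). Libraries overlapped for all 9 genes, where 21.9% of all tested genes did not overlap. The median log2 fold change was 0.02, the same as over all tested genes.

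The B cell genes also differed between libraries of 1 group. Normoxia library 1 was the lowest of its group for all 9 genes, and normoxia library 2 the highest for 8, Bank1 being the exception. WT SuHx library 1 was the lowest for 8 of 9, all but Blk. The mean of the 9 centred log2 profiles ran from -0.56 to 0.89 within the normoxia lungs, from -0.86 to 0.22 within WT SuHx and from -0.18 to 0.63 within the lungs labelled Ahr-KO. This mean includes Fcrl2, at 1.55 in WT SuHx library 2 and at 3.68, 3.36 and 0.98 in Ahr-KO libraries 0, 1 and 2. It also includes Bank1, at 1.51 to 2.14 in the normoxia lungs. In Ahr-KO library 1 the other 7 genes lay at -1.02 to -0.08. Normoxia library 2 also had the highest sum of T and NK cell markers among the normoxia lungs (7004 against 4406 and 5155) and of cardiac markers (11855 against 840 and 1627); their part in the spread of the B cell genes was not tested. Leaving out normoxia library 2 together with Ahr-KO library 2 changed no call among the 9 genes.

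**Figure D3:**
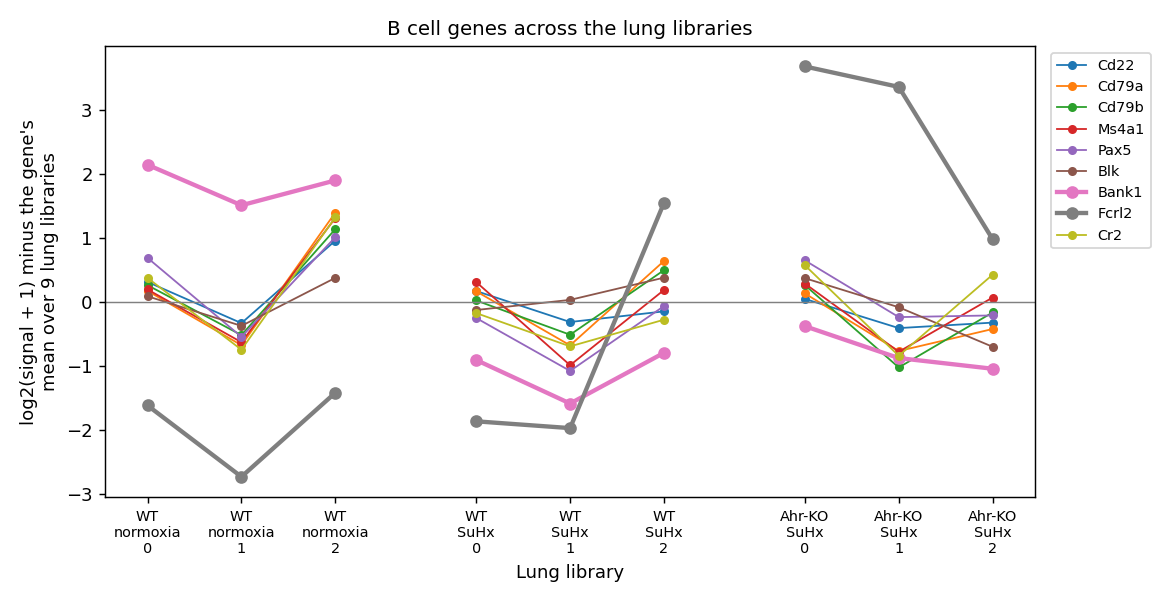
Centred log2(signal + 1) of each B cell gene in the 9 lung libraries (each gene's mean over these libraries is 0; lines join the libraries of 1 group for reading only). The 7 genes other than Bank1 and Fcrl2 all lie below 0 in normoxia library 1 and above 0 in normoxia library 2, and they span 0.41 to 1.13 log2 units within a library.

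Other genes were searched for a like profile, 13063 of them, each averaging 20 or more in signal over the lungs. The 10 whose profile over the 9 lung libraries lay closest to that mean profile were Fcmr, Tnfrsf13c, Btla, Fcer2, Ccr6, Gbp4, Kif5c, Pou2af1, Tnfrsf13b and Fcrl1. Closeness was the root mean square difference of centred log2 values, and it ran from 0.19 for Fcmr to 0.26 for Fcrl1, where the mean profile itself had an SD of 0.56. Of the 10, 6 belonged to the list of other B cell genes: the IgM receptor gene Fcmr, the BAFF receptor gene Tnfrsf13c, the low-affinity IgE receptor gene Fcer2, the coactivator gene Pou2af1, the receptor gene Tnfrsf13b and Fcrl1. Fcmr, for example, was at 269, 234 and 548 in normoxia and at 268, 184 and 341 in WT SuHx. The mean profile includes Bank1 and Fcrl2, which depart from it.

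Bank1 had other neighbours. By the same measure, in a search added after its values were seen, the 5 nearest genes were Vipr1, a receptor gene for vasoactive intestinal peptide (0.37), the somatostatin receptor gene Sstr1 (0.37), the collagen gene Col6a4 (0.43), the endothelial gene Esm1 (0.47) and the Notch ligand gene Dll4 (0.48), where the Bank1 profile had an SD of 1.43. Vipr1 was at 17481, 22184 and 18940.5 in normoxia and at 2851, 3055 and 3768 in WT SuHx. None of these 5 is among the B cell genes or the lists used here. Of the 12 endothelial markers, 2 rose and 2 fell in WT SuHx, beside 13.5% of all tested genes called in either direction. The sum of these markers was 98584 to 103257 in normoxia and 87566 to 91755 in WT SuHx. In the lungs labelled Ahr-KO 1 marker rose and 2 fell against normoxia, beside 9.75% of all tested genes called. The sum there was 78793 to 97491. The part of the endothelial markers in the fall of Bank1 was not tested.

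Fcrl2 had no close neighbour. The nearest was the merged row of ribosomal RNA (Rn18s, Rn45s and Rn5-8s), at a difference of 1.16 against a profile SD of 2.44, followed by Lyc2 (1.29), Rpl39 (1.29), Tal2 (1.31) and Prg2 (1.40). The ribosomal RNA row was at 3007 to 4398 in the lungs labelled Ahr-KO and at 198 to 848 in the WT lungs. Lyc2, a lysozyme gene, shared the high value of WT SuHx library 2, with 582 there against 94.8 and 105 in the other WT SuHx libraries. In Ahr-KO libraries 0, 1 and 2 Lyc2 was at 860, 963 and 201. Prg2 was also highest of its group in WT SuHx library 2, at 76.0 against 4.73 and 13.0. So was the ribosomal RNA row, while Rpl39 and Tal2 were not.

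Beyond the 9 genes, a list of other B cell surface and lineage genes gave 22 tested members. None was called in WT SuHx against normoxia (median log2 fold change -0.36), and none between the SuHx groups (0.09). In the lungs labelled Ahr-KO against normoxia, 1 was lower, beside 3.8% of all tested genes. It was the NAD-degrading ectoenzyme gene Cd38 (median of the list -0.23). Cd38 was at 681, 634 and 1231 in these lungs and at 1519 to 1681 in normoxia (1.98-fold lower, adjusted p = 0.0316, limma), so Ahr-KO library 2 stood nearer to normoxia. Cd38 in WT SuHx was not called (-0.40 ± 0.24, adjusted p = 0.273, limma), nor was the tetraspanin gene Cd37 (-0.04 ± 0.24, adjusted p = 0.924, limma).

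Of the signalling genes below the B cell receptor, 18 were tested and 1 rose in WT SuHx, beside 13.5% of all tested genes called. It was Cd81, a tetraspanin of the co-receptor that many cell types express (1.33-fold, adjusted p = 0.037, limma). None was called in either comparison of the lungs labelled Ahr-KO, where the kinase gene Lyn had log2 fold changes of -0.05 against WT SuHx and -0.03 against normoxia. None of the 8 tested plasma cell genes was called in any lung comparison. The 2 of highest mean signal, Sdc1 and Xbp1, had log2 fold changes of -0.01 and -0.02 in WT SuHx, and which cells their signal came from was not tested. Other members of this list were near the floor or had no row of their own. Tnfrsf17 was at 3.18 to 23.6 and Derl3 at 0 to 3.41 in the lung libraries. Jchain matched no row, and Mzb1 shared a merged row with Prob1 and Spata24.

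The list of factors that guide B cells or keep them alive had 12 members. In WT SuHx 1 rose and 2 fell, beside 13.5% of all tested genes called in either direction. Cxcl12, a chemokine of stromal cells, was at 2411 to 3909 in normoxia, at 5454 to 5776 in WT SuHx and at 6573 to 7265 in the lungs labelled Ahr-KO, with no overlap of normoxia with either SuHx group (1.78-fold higher in WT SuHx, adjusted p = 0.00889, and 2.22-fold in those labelled Ahr-KO, adjusted p = 0.00173, limma). Its receptor gene Cxcr4 fell 1.85-fold in WT SuHx (adjusted p = 0.0202) and 1.67-fold in the lungs labelled Ahr-KO (adjusted p = 0.048, limma). The merged row of Senp3, Tnfsf12 and Tnfsf13 fell 1.26-fold and 1.29-fold in the same comparisons.

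Ccl21, a lymphatic chemokine that draws lymphocytes through Ccr7, was the member of this list that differed between the SuHx groups. It was at 5554, 5948 and 7907 in the lungs labelled Ahr-KO and at 2500.1, 2515 and 2215 in WT SuHx (2.66-fold higher, adjusted p = 0.00348, limma), with no overlap. The WT SuHx values lay within those of normoxia (2213 to 2924). Against normoxia, 2 of 12 members were higher in the lungs labelled Ahr-KO, Ccl21 and Cxcl12, and 2 lower. Of all tested genes, 9.75% were called in this comparison and 0.499% between the SuHx groups. Cxcl13, the chemokine of B cell follicles, was not called, at 19.6 to 75.9 in normoxia, 29.0 to 39.8 in WT SuHx and 37.2 to 149.7 in the lungs labelled Ahr-KO.

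Other leukocyte lists stayed mostly uncalled in lung. Of all tested genes, 13.5% were called in WT SuHx against normoxia. The share was 9.75% in the lungs labelled Ahr-KO against normoxia and 0.499% between the SuHx groups. None of the 15 T and NK cell markers or of the 9 pan-leukocyte genes was called in any lung comparison. T and NK cell markers had a median log2 fold change of -0.11 in WT SuHx and -0.46 between the SuHx groups. Of 13 tested monocyte, macrophage and dendritic cell markers, 3 rose in both SuHx groups against normoxia, the complement genes C1qa, C1qb and C1qc, and C1qc was lower in the SuHx lungs labelled Ahr-KO than in those of WT rats (1.96-fold, adjusted p = 0.0458, limma). The medians that follow are over all 13 markers, the C1q genes included. The median log2 fold change of this list was -0.28 in WT SuHx against normoxia, with 9 of 13 below 0. In the lungs labelled Ahr-KO against normoxia it was 0.09, with 9 above 0 and 4 below. Between the SuHx groups it was 0.24, with 8 above 0. Cd163 was at 333, 465 and 655 in the lungs labelled Ahr-KO and at 71.1 to 140 in WT SuHx, and was not called. Of 8 tested airway markers, Sec14l3 fell in both SuHx groups against normoxia. The airway sum was 255789.6 in Ahr-KO library 2, against 151191.5 and 145588 in Ahr-KO libraries 0 and 1. Bpifa1 was at 28980 in Ahr-KO library 2, against 116 and 15.1 in the same 2 libraries. It was at 1231 in normoxia library 2, against 0.796 and 0 in normoxia libraries 0 and 1. The part of these airway differences in the spread of the B cell genes was not tested. Of 9 cardiac markers none was called. All 9 cardiac markers had a positive log2 fold change in the lungs labelled Ahr-KO against WT SuHx, though. For 8 of these markers the libraries did not overlap, beside 21.9% of all tested genes. Their sums were 5648 to 25660.1 in the former and 2609 to 3479 in the latter, so every library labelled Ahr-KO lay higher. Myh6, a heart myosin gene, was at 673 to 4900.1 against 0 in all 3 WT SuHx lungs. The part of this in the comparison of B cell genes between the SuHx groups was not tested.

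ECs were compared with normoxia lung over those 6 libraries, with 15186 genes tested. Of the 9 B cell genes, 7 were higher in ECs and none was lower, beside 26.1% of all tested genes higher and 56.2% called in either direction. Pax5 had the largest fold of the 9, from 208, 87.8 and 260.0 in lung to 1456, 1745 and 1369 in ECs (1523 ± 197), which was 8.97-fold (log2 fold change 3.16 ± 0.37, adjusted p = 0.000427, limma). Ms4a1 was at 940.4, 935 and 1206 in ECs (4.39-fold, adjusted p = 0.00506, limma), and Blk at 353, 406 and 498 (4.38-fold, adjusted p = 0.00033, limma). For each of these 3 genes the lowest EC library lay above the highest lung library.

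Cd79a was at 772, 763 and 936 in ECs (3.92-fold higher than in lung, adjusted p = 0.00924, limma). Cd79b was at 1329, 1189 and 1731 (3.27-fold, adjusted p = 0.00751, limma). Cd22 was at 1108, 1071 and 1247 (2.88-fold, adjusted p = 0.00378, limma). Libraries of ECs and normoxia lung did not overlap for these genes, as for 7 of the 9 in all, beside 65.5% of all tested genes in either direction and 30.4% with ECs higher. Cr2 was at 473, 417 and 612 (3.05-fold, adjusted p = 0.0234, limma), and its call was lost without normoxia library 0 (adjusted p = 0.0594) or without EC library 0 (0.0579) or 2 (0.0654).

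Bank1 and Fcrl2 stood apart here as well. Bank1 was at 708, 660.4 and 1858 in ECs against 504 to 781 in lung, so that EC library 2 alone lay above lung (log2 fold change 0.58 ± 0.39, adjusted p = 0.244, limma). Its quotient to Cd79a was 0.866 to 1.99 in ECs, below 2 of the 3 normoxia lungs. Fcrl2 was close to the limit of a few reads in ECs, at 1.14, 3.62 and 7.49 (log2 fold change -1.65 ± 0.63, adjusted p = 0.0574, limma). It was called lower without normoxia library 1 (adjusted p = 0.0388) or without EC library 2 (0.0252). The median log2 fold change over the 9 genes was 1.71, beside -0.05 over all tested genes.

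**Figure D4:**
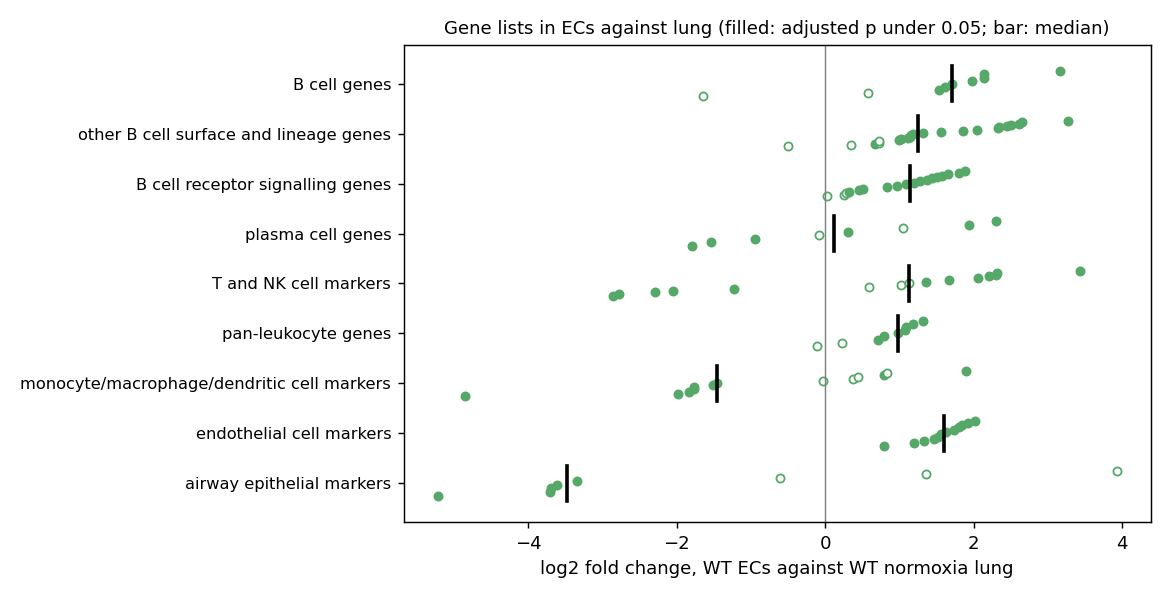
Log2 fold change of the tested members of 9 gene lists in WT ECs against WT normoxia lung (1 point per gene; filled at an adjusted p under 0.05; the black bar is the list's median). B cell, T cell and endothelial lists lie mostly above 0, and macrophage and airway lists mostly below.

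Of the 22 tested other B cell genes, 18 were higher and 0 lower (median log2 fold change 1.25), and of 18 receptor signalling genes 15 were higher and 0 lower (1.14). Plasma cell genes split, with 3 higher and 3 lower of 8: Irf4 and Prdm1, which activated lymphocytes also use, were 4.94-fold and 3.82-fold higher, and Sdc1 was 3.46-fold lower, these 3 named after their values were seen. Of the 12 guidance and survival genes, 5 were higher and 2 lower. All these list counts stand beside 26.1% of all tested genes higher in ECs and 56.2% called in either direction. The receptor gene Ccr7 was 11.3-fold higher, and Tnfsf13b, which encodes the survival factor BAFF, was 12.4-fold lower, both likewise chosen afterwards.

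Markers of other cells differed between ECs and lung in both directions. Of all tested genes, 26.1% were higher in ECs and 56.2% were called in either direction. All 12 endothelial markers were higher (median log2 fold change 1.59), with sums of 284805 to 351142 in ECs and 98584 to 103257 in lung. Of 15 T and NK cell markers, 7 were higher and 5 lower: the T cell receptor genes Cd3d, Cd3e and Cd3g were 4.63-fold to 4.95-fold higher, and the cytotoxic genes Nkg7, Gzmb and Prf1 were lower. Sums of the T and NK cell list were 7470 and 8501 in EC libraries 0 and 1 and 17131.5 in EC library 2, against 4406 to 7004 in lung. Of 9 pan-leukocyte genes, 7 were higher (sums of 51763 to 62114 against 31491 to 38792), and of 13 monocyte, macrophage and dendritic cell markers 2 were higher and 7 lower. Airway markers were lower for 5 of 8 tested and cardiac markers for 2 of 9. No cell count or purity of the EC preparation is given in the sources used here, and the part of other cells in the B cell signal was not tested.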

How the data were processed

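The authors deposited 1 table of a signal per gene and library. That the signal is an estimated read count divided by 1 factor per library was read from the values: 79.9% to 81.7% of values above 0 lay within 0.05 of a whole multiple of the library's commonest smallest value. The submitters' processing notes name rn6 and FastQC; aligner, counter, normalization and strand are not stated there or elsewhere in the sources used here. Column names gave the group but not the sample, so libraries carry the column suffix. All 12 sample columns were used. Whether replicates are separate animals is not stated, so p-values measure only the spread between these libraries.

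A gene was tested if its signal averaged 1 or more in the libraries of the fit. The test was two-sided, by limma (version 3.58.1, under R 4.3.3) with a moderated variance trend, on the log2 of signal + 1, with Benjamini-Hochberg adjustment over all tested genes and a call under 0.05. The 9 lung libraries shared 1 fit, and ECs were fitted with normoxia lung. The script was tested on simulated data. Reads of related, overlapping or antisense genes may be shared.

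The B cell genes and the 10 other lists (135 symbols; Faim3, Siglecg, Jchain and Igj did not match a row) were chosen with earlier results of these data known. Named were all 9 B cell genes, up to 4 called members of each list per lung comparison or the 2 of highest mean, and the 10 nearest profiles; of lists with no call not every pair is printed. Alternatives were other scalings, filters, a pseudocount of 0.1, fits, a block and leaving out libraries. Protein sequences were not used here.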

Additional observations from a re-analysis of the deposited data

How the results depend on the processing

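The number of the 9 B cell genes called was 1 in WT SuHx and 0 between the SuHx groups under every alternative run, and leaving out single libraries gave 1 to 1 and 0 to 0. Against normoxia, the lungs labelled Ahr-KO had 1 to 2 called and ECs 6 to 8 when single libraries were left out; the first is Fcrl2 losing its call, the others are Cr2 and Fcrl2. With the replicate block on the column suffix the counts were 1, 0, 2 and 7, as without it. Deviations of same-numbered libraries correlated at -0.04 to 0.22, and not all pairs of any comparison passed 0.1, so the number was not taken to pair libraries; in the lungs labelled Ahr-KO against normoxia every library correlated best with its own number. Of 603 values of single B cell genes under alternatives, 594 kept their call, 7 lost it, 2 gained it and 0 reversed, and 26 uncalled values changed sign. Bank1 ranged from -3.11 to -2.70 in WT SuHx and from -2.81 to -2.45 in the lungs labelled Ahr-KO.

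The count over all genes, against which these are read, moved more. In WT SuHx against normoxia it was 2052, and 3385 with the block, 748 when the log2 fold change also had to reach 1 in size, and 862 to 2277 without single libraries. Between the SuHx groups it was 76, and 47 without limma's trend, 126 with all 12 libraries in the fit and 32 to 55 without single libraries. In the lungs labelled Ahr-KO against normoxia it was 1485, and 659 with the fold threshold and 721 to 1882 without single libraries. In ECs it was 8539, and 4409 with the fold threshold. The fewer libraries and the added threshold are part of those settings; for the others the cause was not tested. Leaving out normoxia library 2 and Ahr-KO library 2 together was chosen after seeing the data. No group is over 3 libraries, which limits what differences in Cd79a, Ms4a1 or Cr2 could be detected.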
